A study of Mus musculus with 3 samples.

Results

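The genes described here handle zinc, copper and iron in OCCM-30, a wild-type immortalised mouse line of cementoblasts, the cells that deposit cementum on the tooth root. They were taken by gene symbol and comprise the metallothioneins, their regulator Mtf1, the Slc30a and Slc39a zinc transporters, the copper transporters, the NRAMP transporters Slc11a1 and Slc11a2, the iron exporter Slc40a1, the transferrin receptor Tfrc, and the ferritins Fth1 and Ftl1. The rule found 39 of the 46095 genes in the table, and 29 of them had a summed count of 20 or more over the libraries and were compared. Total RNA was sequenced from cells before cementogenic differentiation (day 0) and after 7 and 14 days of it, with 1 library per day, so no difference had a replicate check. Days of differentiation and days in culture cannot be told apart, because no uninduced culture of the same age was analysed here.

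Metallothioneins are small cysteine-rich proteins that bind zinc and copper and buffer them in the cell. The transcription factor MTF1 senses free zinc and switches on the metallothioneins and the zinc exporter gene Slc30a1. ZIP proteins (Slc39a) move zinc into the cytosol, ZnT proteins (Slc30a) move it out of the cytosol or into organelles, and mineralising cells need zinc for alkaline phosphatase, copper for lysyl oxidase and iron for collagen hydroxylation. Iron uptake and storage are set largely after transcription, by iron regulatory proteins that bind a short hairpin, the iron-responsive element, in the messenger RNA.

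The libraries held 13224690 counts on day 0, 14034518 on day 7 and 14439666 on day 14. Levels are CPM, counts scaled to a common library size, after TMM scaling, which allows for differences in library composition, and levels of different genes are set side by side only as CPM per kilobase of listed gene length. Rose and fell are used of a gene with at least 1 CPM in the higher library, a ratio of at least 2 and a 95% interval that excluded 1. That interval covers counting error only: it leaves out differences between cultures, and reads counted without molecular identifiers need not be separate molecules. All 10 of the osteoblast-line markers had a count on every day, at a summed 17640 CPM on day 0, 27100 on day 7 and 28570 on day 14. Most of the day 0 sum was Col1a1 (8914 CPM) and Col1a2 (6029 CPM). Ibsp and Bglap had only 6 counts each on day 0 and Bglap2 had 12. Of 10 macrophage and osteoclast markers, Adgre1 and Itgam were at 0 on all 3 days and 4 were at 0 on any one day, not the same 4 on day 0 as later, and the sum of the list was 15.4, 16.7 and 15.0 CPM. Erythroid markers summed to 1.55, 0.516 and 0.216 CPM, epithelial markers to 3.30, 0.443 and 0.144 CPM, and endothelial markers to 1.33, 2.51 and 1.01 CPM on day 0, 7 and 14.

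Of the 29 compared genes 2 rose on day 7, Mt1 and Slc30a3, and 3 fell, Tfrc, Slc30a1 and Slc39a11. That is 17.2% of them, where 22.2% of all 15534 genes with the same summed count changed, 11.5% upwards and 10.6% downwards. On day 14, 4 were above day 0, Mt1, Mt2, Slc30a3 and Slc39a7, and 1, Slc30a1, was below it, again 17.2%, against a background of 16.4% (8.92% higher and 7.47% lower). Between day 7 and day 14 only Slc39a7, with an uncertain count, passed the rule, 3.45% against a background of 4.67% (2.57% higher and 2.1% lower). The shares of changed genes were thus near the background. The median log2 ratio to day 0 was 0.00136 on day 7 and -0.00489 on day 14, next to 0.00789 and 0.000707 over all compared genes. With library totals in place of TMM factors these medians were -0.154 and -0.156, where the median of all genes was itself at -0.137 and -0.152. In these bulk samples, fewer cells that express a gene and less RNA of it per cell cannot be told apart.

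**Figure D1:**
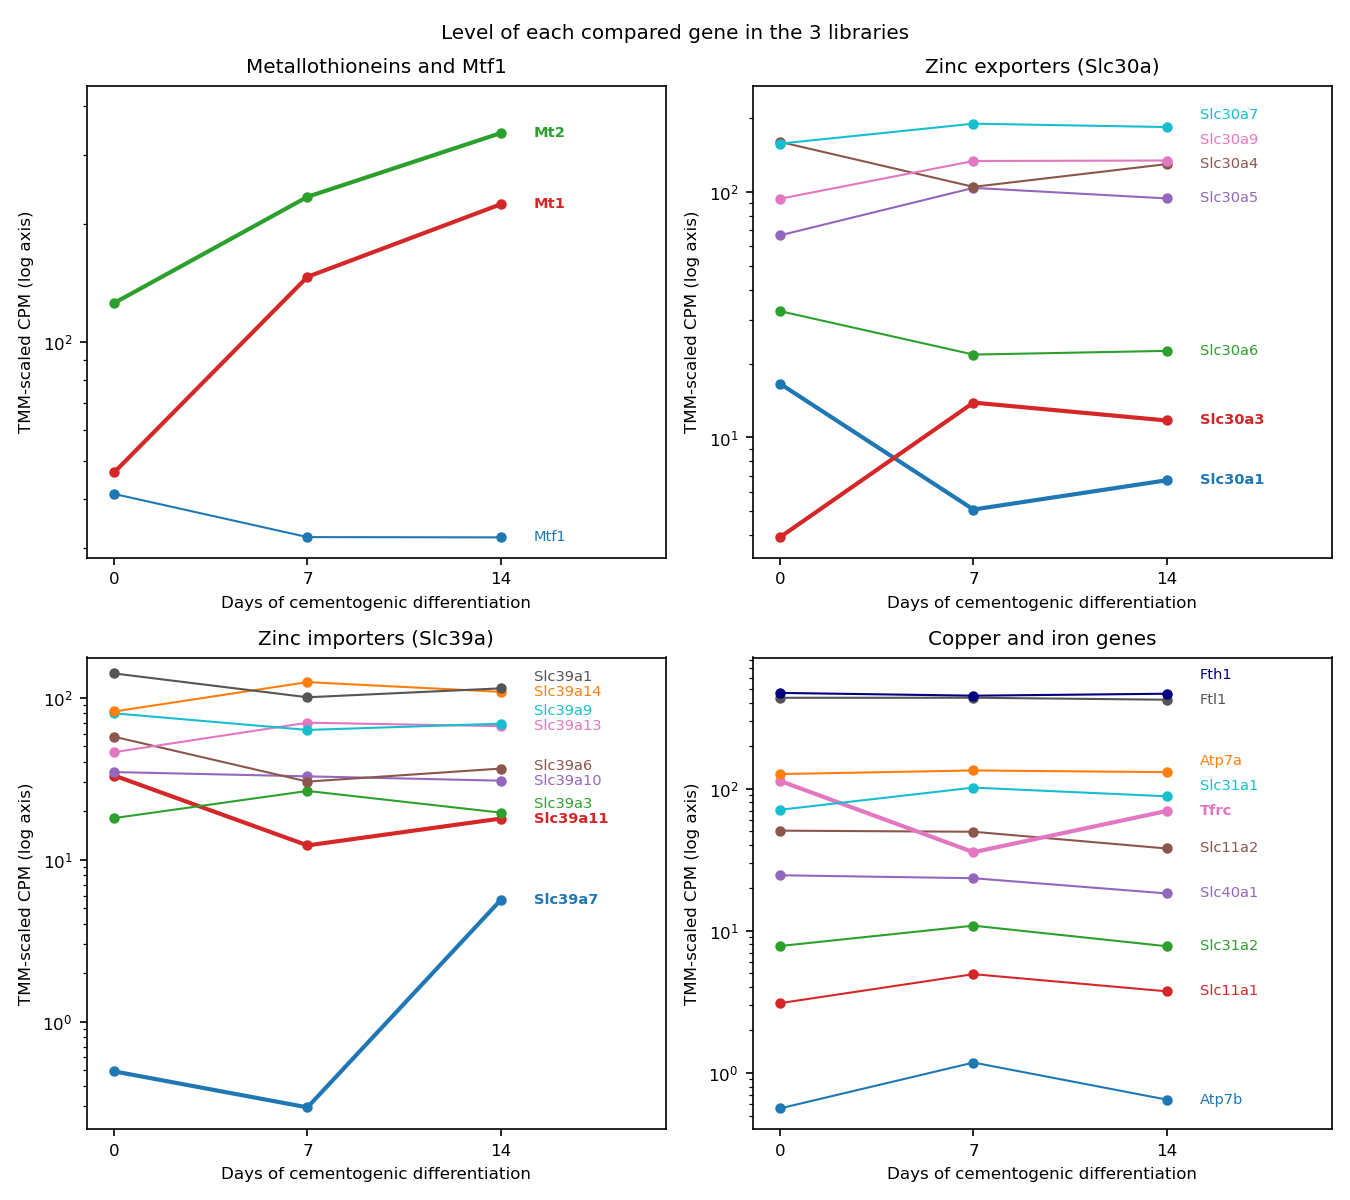
Level of each of the 29 compared genes as TMM-scaled CPM (log axis) against days of cementogenic differentiation, 1 library per day, with bold names and thick lines for genes that passed the 2-fold rule in at least 1 comparison. Mt1 and Mt2 are highest on day 14, Slc30a1, Slc39a11 and Tfrc are lowest on day 7, and the ferritin lines stay between 422 and 471 CPM.

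Mt1 and Mt2, the metallothioneins of most tissues, were both above their day 0 level on day 14. Mt1 (mm10 chromosome 8, 94179084 to 94180327, plus strand) stood at 46.7 CPM on day 0, 147 on day 7 and 224 on day 14, from 665, 1990 and 3119 counts. It rose 3.14-fold by day 7 (95% interval 2.88 to 3.43) and 4.80-fold by day 14 (4.42 to 5.23). Mt2, its neighbour (94172618 to 94173567), stood at 126, 235 and 341 CPM, from 1793, 3181 and 4734 counts. Its ratio of 1.86 on day 7 (1.76 to 1.97) was below the 2-fold rule, and by day 14 it had risen 2.70-fold (2.56 to 2.86). Both genes were lowest on day 0 and highest on day 14, although the step from day 7 to day 14, 1.53-fold for Mt1 (1.45 to 1.62) and 1.45-fold for Mt2 (1.39 to 1.52), was below 2-fold.

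Per kilobase, Mt2 was the more abundant on every day, at 227, 422 and 613 CPM per kilobase against 61.5, 193 and 295 for Mt1. Mt1 made up 27.1% of the counts of the pair on day 0 (exact binomial 95% interval 25.3 to 28.9), 38.5% on day 7 (37.2 to 39.8) and 39.7% on day 14 (38.6 to 40.8). This share is free of library scaling, and it shows that Mt1 gained more than Mt2 between day 0 and the later libraries. The genes are similar in sequence, so reads can be split between them. The summed metallothionein level went from 288 to 616 and 909 CPM per kilobase. Of the other metallothioneins, Mt3, known from brain, was at 0 in every library, and Mt4, known from stratified epithelium, had 0, 4 and 2 counts. A count of 0 allows up to 3 counts, or 0.211, 0.221 and 0.216 CPM on day 0, 7 and 14.

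The promoters of the pair are shown because MTF1 acts on metallothionein genes through metal response elements. They cover 250 bases before and 50 after the start of each gene in RefSeq (GRCm38.p6, chr8:94178839-94179138 for Mt1 and chr8:94172368-94172667 for Mt2, plus strand), and capitals mark the 7-base core of that element, TGCACNC or TGCGCNC, on either strand.
Mt1: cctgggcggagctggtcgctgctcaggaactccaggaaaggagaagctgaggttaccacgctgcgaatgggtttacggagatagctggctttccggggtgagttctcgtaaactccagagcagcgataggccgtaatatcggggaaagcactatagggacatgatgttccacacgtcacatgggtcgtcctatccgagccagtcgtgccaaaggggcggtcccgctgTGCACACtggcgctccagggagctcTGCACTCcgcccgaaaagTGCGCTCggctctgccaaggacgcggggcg
Mt2: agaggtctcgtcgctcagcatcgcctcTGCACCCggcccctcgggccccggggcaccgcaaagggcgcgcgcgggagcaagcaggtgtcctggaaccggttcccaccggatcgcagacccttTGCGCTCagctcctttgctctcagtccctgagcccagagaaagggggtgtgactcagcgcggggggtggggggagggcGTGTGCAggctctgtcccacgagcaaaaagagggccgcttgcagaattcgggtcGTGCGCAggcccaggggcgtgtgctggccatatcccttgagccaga

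The window of Mt1 held 3 cores, all on the plus strand, and that of Mt2 held 4, the last pair of which read on the minus strand. The Mt1 cores at bases 3 and 21 and the Mt2 core at base 5 lie after the listed start. These numbers depend on where that start is listed, and elements outside the windows were not searched for. Of 32851 RefSeq promoters of the same length, 25.7% held 1 or more cores and 1.97% held 3 or more. Promoters were found for 33 of the 39 genes, 40 windows in all, and 20 of those windows, or 50%, held a core. They belong to 19 genes. Slc30a1, Slc30a2, Atp7a and Tfrc have a window with 2 cores, and Slc30a4 and Slc30a10 have one with 3. Slc30a10 was at 0 in every library, and the 2 cores of Tfrc overlap each other. A core is a match of letters and not a measured binding site.

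Mtf1 itself (chromosome 4, 124802549 to 124849800), the zinc-sensing regulator, stood at 41.1 CPM on day 0 and 31.9 on both later days, from 585, 433 and 443 counts. Its day 0 level was 1.29-fold above each later day (1.14 to 1.46 for both), which is below the rule. The gene overlaps 1110065P20Rik on the opposite strand by 316 bases. Whether the counting used strand is not known from the sources used here, and without strand the reads of such a pair cannot be told apart.

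Slc30a1 (chromosome 1, 191906689 to 191913247), the plasma membrane zinc exporter ZnT1 and, like the metallothioneins, a known MTF1 target, went the other way. It stood at 16.5 CPM on day 0, 5.09 on day 7 and 6.69 on day 14, from 235, 69 and 93 counts. It fell 3.25-fold by day 7 (2.47 to 4.31) and was 2.47-fold lower on day 14 (1.93 to 3.17). Day 0 was therefore its highest library and the lowest one of Mt1 and Mt2.

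Slc30a3 (chromosome 5, 31086106 to 31108244), ZnT3, best known for loading zinc into synaptic vesicles, stood at 3.94, 13.9 and 11.7 CPM from 56, 188 and 163 counts. It rose 3.52-fold by day 7 (2.60 to 4.84) and was 2.98-fold above day 0 on day 14 (2.19 to 4.11). Even so it stayed a minor exporter, at 6.93 CPM per kilobase on day 7 and 5.86 on day 14. Slc30a1 was lower still on both days, at 0.973 and 1.28 CPM per kilobase.

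The other compared exporters stayed within 2-fold of day 0. Slc30a9 (ZnT9, mitochondrial) was the highest per kilobase on day 14, at 31.8 CPM per kilobase, with 22.2 on day 0 and 31.6 on day 7, and its ratio to day 0 was 1.42 and 1.43. Slc30a5 followed at 20.01, 31.2 and 28.3 CPM per kilobase, and its interval overlapped that of Slc30a9 on day 0 and day 7. Slc30a4 (ZnT4, endosomal) was the highest on day 0, at 29.1 CPM per kilobase, and its ratio to day 0 was 0.656 on day 7 (19.1 CPM per kilobase) and 0.813 on day 14 (23.7). Slc30a7 (ZnT7, of the Golgi) stood at 16.6, 20.1 and 19.4 CPM per kilobase, with ratios of 1.21 and 1.17.

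ZnT5 and ZnT6 form a heterodimer in the early secretory pathway that, beside ZnT7, supplies zinc to alkaline phosphatase, so the pair was compared directly. Slc30a5 had 948, 1408 and 1308 counts and Slc30a6 had 465, 295 and 313 on day 0, 7 and 14. The ratio to day 0 was 1.56 for Slc30a5 on day 7 (1.43 to 1.69) and 0.666 for Slc30a6 (0.573 to 0.772). Slc30a5 was thus 67.1% of the counts of the pair on day 0 (64.6 to 69.5), 82.7% on day 7 (80.8 to 84.4) and 80.7% on day 14 (78.7 to 82.6). The later intervals lie above that of day 0, although neither gene alone reached 2-fold. Alpl, the tissue non-specific alkaline phosphatase that takes up this zinc, rose from 53.1 CPM to 200 and 297, 3.77-fold by day 7 (3.48 to 4.09).

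**Figure D2:**
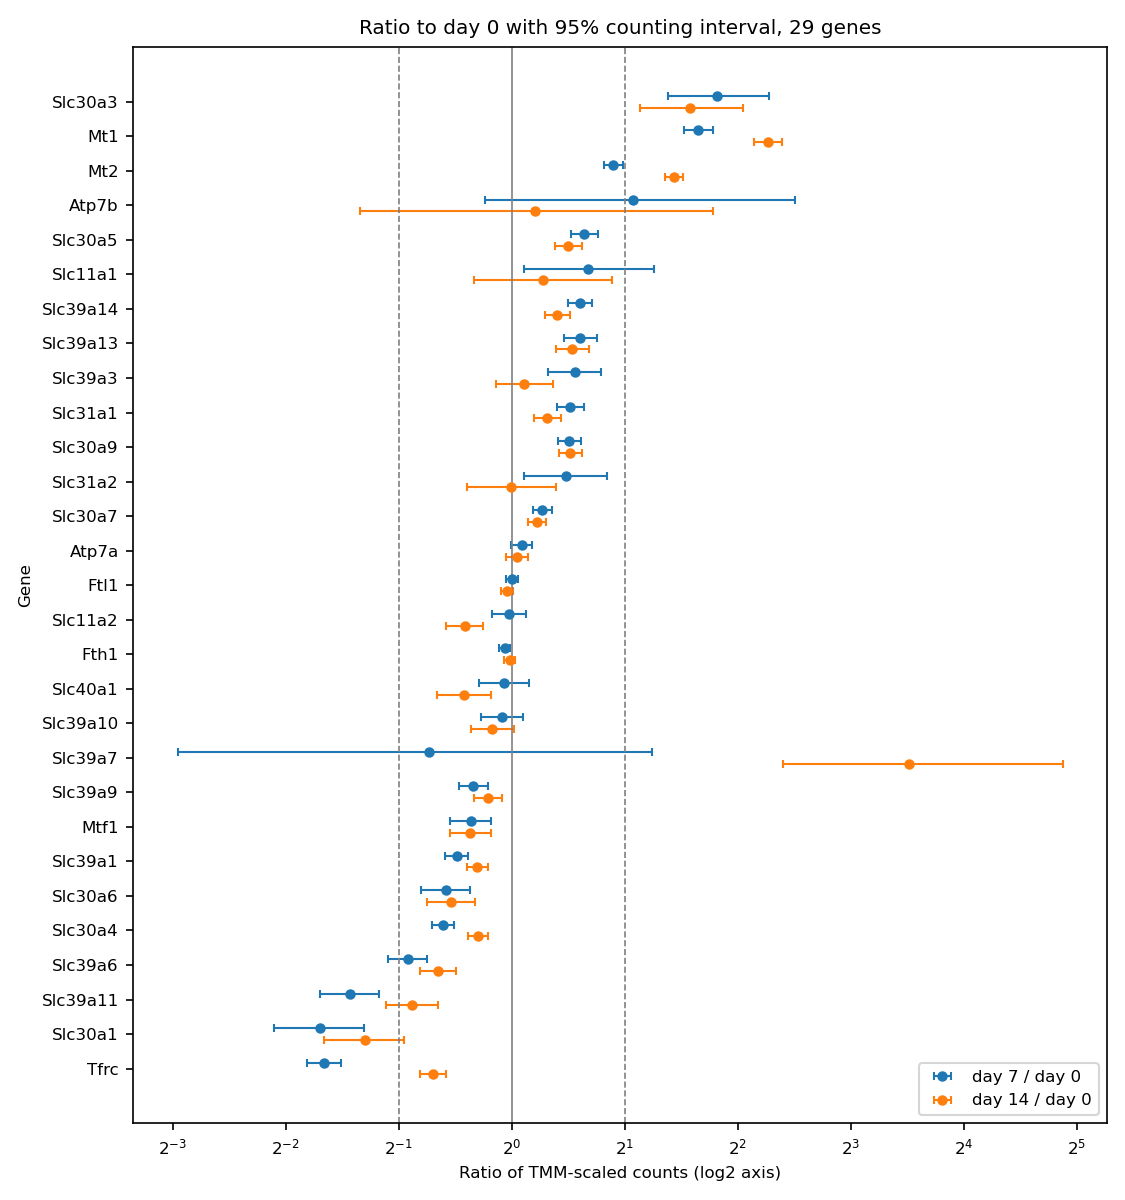
Ratio of TMM-scaled counts to day 0 (log2 axis) for the 29 compared genes, day 7 in blue and day 14 in orange, with 95% counting intervals and dashed lines at 2-fold either way. Mt1 lies above 2-fold on both days, Slc30a1 below it on both, and Tfrc and Slc39a11 below it on day 7 alone, while most intervals lie between the dashed lines.

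Of the 9 compared zinc importers 1 fell and 0 rose on day 7, where 10.6% of all genes fell and 11.5% rose. A log2 ratio above 0 was found in 3 of the 9 and in 7831 of all 15534 genes. Their median log2 ratio was -0.32 on day 7 and -0.17 on day 14, and -0.39 and -0.33 with library totals alone. The day 7 median with TMM factors was the value of Slc39a7, from 7 counts on day 0 and 4 on day 7. The ratios of that gene are uncertain, as described below, so this median is not a measure of the whole family. Slc39a11 (chromosome 11, 113244851 to 113650506), ZIP11, was the importer that fell. It stood at 33.0, 12.2 and 17.9 CPM, from 470, 166 and 249 counts, 2.70-fold lower on day 7 (2.26 to 3.24) and 1.84-fold lower on day 14 (1.58 to 2.16), the latter within the rule. With library totals in place of TMM factors its day 14 ratio became 0.485 and passed it. The gene overlaps Cog1 on the opposite strand by 1329 bases, where Cog1 had 912, 738 and 813 counts.

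Slc39a6 and Slc39a10 encode ZIP6 and ZIP10, plasma membrane importers that can pair with each other. Slc39a6 stood at 57.4, 30.3 and 36.5 CPM and Slc39a10 at 34.7, 32.7 and 30.7 CPM. The ratio of Slc39a6 on day 7, 0.529 (0.468 to 0.596), missed the rule, though library totals alone gave 0.475, past it. Slc39a6 was 62.3% of the counts of the pair on day 0 (59.6 to 64.9), 48.1% on day 7 (44.7 to 51.5) and 54.3% on day 14 (51.0 to 57.5), so the share was highest on day 0 and the intervals of day 7 and day 14 overlapped.

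Slc39a1 (ZIP1, a broadly expressed plasma membrane importer) was the most abundant importer per kilobase in each library, at 60.2, 42.9 and 48.7 CPM per kilobase, with ratios to day 0 of 0.713 and 0.809. Slc39a13 (ZIP13, which connective tissue needs for collagen-producing cells) stood at 13.2, 20.1 and 19.1 CPM per kilobase, a ratio of 1.52 on day 7 (1.37 to 1.68) and 1.45 on day 14 (1.31 to 1.60). Slc39a14 (ZIP14, which also carries iron and manganese) stood at 10.7, 16.2 and 14.1 CPM per kilobase, with a ratio of 1.52 on day 7 (1.41 to 1.64). Slc39a3 (ZIP3) had a ratio of 1.47 and Slc39a9 (ZIP9) one of 0.790 on day 7. On every day Slc39a1 lay clear of the next importer by its counting interval, while Slc39a14 and Slc39a9 overlapped on day 14.

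Slc39a7, ZIP7, which releases zinc from the endoplasmic reticulum, had 7, 4 and 78 counts. The ratio on day 14 was 11.4 (5.28 to 29.3) against day 0 and 19.0 (7.14 to 71.6) against day 7. The table lists the gene on a scaffold outside the assembled chromosomes, with a span that covers several other genes, so its reads may be lost or shared and these ratios are uncertain. Overlapping genes on that scaffold, Ring1 and Rxrb among them, had at most 9 counts in any library.

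The remaining 10 genes were not compared. Mt3, Slc30a8, Slc30a10 and Slc39a12 were at 0 in all libraries, and Mt4, Slc30a2, Slc39a2, Slc39a4, Slc39a5 and Slc39a8 had at most 5 counts in any. Slc39a2, like Slc39a7, is listed on a scaffold outside the assembled chromosomes, so its counts may miss reads. Slc30a8 is known from pancreatic islets and Slc39a4 and Slc39a5 from the gut. Slc39a8 (ZIP8), an importer of zinc and manganese known from inflamed and cartilage cells, had a single count, on day 14.

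**Figure D3:**
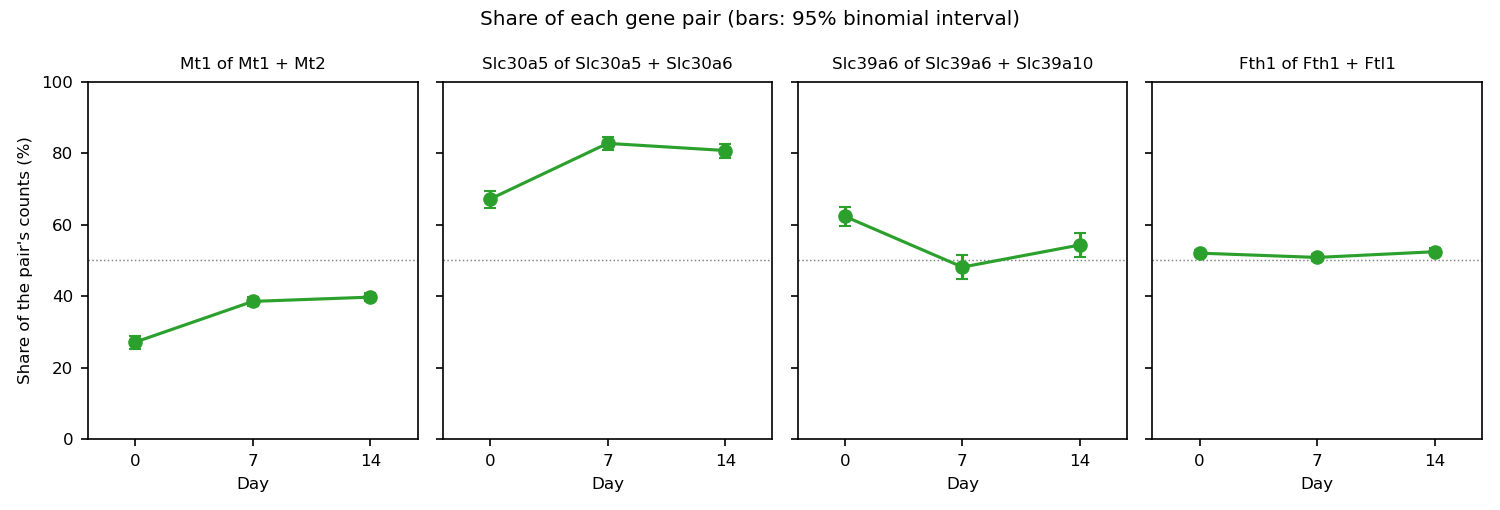
Share of the first gene in the summed counts of 4 gene pairs (percent, y axis from 0 to 100) on day 0, 7 and 14, with exact binomial 95% intervals and a dotted line at 50%. The shares of Mt1 and Slc30a5 are higher on both later days than on day 0, that of Slc39a6 is lower, and that of Fth1 stays between 50.8% and 52.4%.

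No copper transport gene passed the rule in any comparison. Slc31a1, the high-affinity copper importer CTR1 (chromosome 4, 62360582 to 62391769), stood at 70.9, 102 and 88.2 CPM, a ratio of 1.43 on day 7 (1.32 to 1.55) and 1.24 on day 14 (1.14 to 1.35). Slc31a2, its relative CTR2, stood at 7.80, 10.8 and 7.77 CPM, with a ratio of 1.39 on day 7 (1.08 to 1.79). Atp7a, the copper pump that loads secreted enzymes such as lysyl oxidase, stood at 126, 134 and 130 CPM, and its intervals to day 0 (0.993 to 1.13 and 0.966 to 1.10) include no change. Atp7b, the pump known from liver, had 8, 16 and 9 counts and was too low to compare closely. CTR1 and ATP7A were thus both present at every time, at 18.9 and 15.4 CPM per kilobase on day 0.

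The enzymes and carriers that use copper were taken from a list of 28 symbols, 22 of them compared. By day 7, 6 rose, 3 fell, and the share that changed was 40.9%, where it was 22.2% over all genes. The list was chosen with earlier results of these data known, so this share is not independent of them. Lox, lysyl oxidase, which crosslinks collagen and elastin, stood at 332, 1208 and 1160 CPM, up 3.64-fold by day 7 (3.52 to 3.76), and Loxl1 rose 9.88-fold (6.47 to 15.8) from 24 counts. Cp, ceruloplasmin, a copper ferroxidase, rose from 20.9 to 528 CPM, 25.2-fold (22.5 to 28.4), and remained 21.9-fold above day 0 on day 14. Its relatives Hephl1, at 0, 80 and 44 counts, and Heph, at 2, 24 and 16, rose too. On day 7 Hephl1 was 28.0-fold above a floor of 3 counts per library, and the lower limit of its counting interval was 22.2-fold. Heph rose 12.6-fold by day 7 (3.13 to 110). Aoc3, a copper amine oxidase, rose 7.31-fold (5.55 to 9.78) by day 7 and then fell 2.19-fold by day 14 (1.84 to 2.62).

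The copper list also held genes that fell. Steap1 and Steap2, metalloreductase family members, went from 313 to 26 and from 2436 to 867 counts by day 7, and fell 11.5-fold (7.68 to 17.8) and 2.68-fold (2.48 to 2.90). Loxl2 fell from 16 to 2 counts, a ratio of 0.131, and had 9 counts on day 14. Of the copper chaperones, Atox1, which hands copper to ATP7A, stood at 25.2, 24.6 and 18.8 CPM, and Ccs, which loads superoxide dismutase, had a ratio of 1.05 on day 7. On day 14, 6 genes of the list were higher and 2, Steap1 and Steap2, lower than on day 0, or 36.4% against 16.4% over all genes.

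Among the iron members, Tfrc, the transferrin receptor that brings iron into the cell (chromosome 16, 32608896 to 32632794), was the one that passed the rule. It stood at 113 CPM on day 0, 35.6 on day 7 and 69.5 on day 14, from 1606, 483 and 965 counts. It fell 3.17-fold by day 7 (2.86 to 3.52). On day 14 it was 1.95-fold above day 7 (1.75 to 2.18) and 1.62-fold below day 0 (1.499 to 1.76), both short of the rule.

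The ferritins, which store iron, did not pass the rule in any comparison. Fth1, the heavy chain, stood at 471, 450 and 464 CPM and Ftl1, the light chain, at 435, 435 and 422 CPM. Their largest ratio to day 0 in either direction was 0.956, for Fth1 on day 7 (0.923 to 0.990). Fth1 made up 52.0%, 50.8% and 52.4% of the counts of the pair. Both genes have many processed copies, and those listed drew few reads: 17 copies of the light chain had 103, 107 and 97 counts in all and 5 of the heavy chain 25, 30 and 40, though reads shared with a copy may have been lost.

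Iron-responsive elements are shown because they are the sites by which iron regulatory proteins act on these messages, repressing ferritin and ferroportin translation from the 5' end and stabilising the Tfrc message from the 3' end. A search of the longest protein-coding transcript of 21875 genes in GENCODE M21 (GRCm38) asked for a C, 5 bases, the loop CAGTGN and 5 bases that pair with the first 5, G with T allowed. Capitals mark the loop.
Fth1, 5' UTR, chr19:9982738-9982754, plus strand: cttcaaCAGTGCttgaa
Ftl1, 5' UTR, chr7:45459785-45459801, minus strand: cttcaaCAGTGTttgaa
Slc40a1, 5' UTR, chr1:45925471-45925487, minus strand: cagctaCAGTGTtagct
Tfrc, 3' UTR, chr16:32631225-32631241, plus strand: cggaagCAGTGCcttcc
Tfrc, 3' UTR, chr16:32631604-32631620, plus strand: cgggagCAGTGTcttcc
Tfrc, 3' UTR, chr16:32631669-32631685, plus strand: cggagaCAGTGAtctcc
Tfrc, 3' UTR, chr16:32631716-32631732, plus strand: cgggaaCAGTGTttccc

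Such a match was present in 271 genes, or 1.24%, and Tfrc was the single gene of the 21875 with 3 or more. The other 3 members with a match hold it once, in the 5' UTR. Elements of another shape, or in a shorter transcript, would be missed by this search. A member without a match, such as Slc11a2, may therefore still hold an element. Protein levels and binding to these sites were not measured.

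Slc40a1, the iron exporter ferroportin, stood at 24.5, 23.4 and 18.3 CPM, 1.34-fold below day 0 on day 14 (1.14 to 1.58). Slc11a2, the iron importer DMT1, stood at 50.5, 49.6 and 37.9 CPM, 1.33-fold below on day 14 (1.19 to 1.497). Slc11a1, NRAMP1 of macrophage phagosomes, had 44, 67 and 52 counts, a ratio of 1.60 on day 7 (1.08 to 2.39). The macrophage genes Adgre1 and Itgam were at 0 on all 3 days and Ptprc had 1, 0 and 0 counts. Counts on day 0 were higher than later for Cd14 (101, 49 and 51), Cd68 (55, 39 and 33) and Lyz2 (10, 0 and 0), and lower for Acp5 (0, 59 and 29) and Ctsk (50, 76 and 93). The part of such cells in the level of Slc11a1 was not tested. Epor, the erythropoietin receptor, at 21, 6 and 3 counts, was the one erythroid marker with more than 1 count.

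Other iron genes came from a list of 34 symbols, of which 29 were in the table and 25 were compared. By day 7, 4 rose and 3 fell, 28.0% of them, near the 22.2% over all genes. Beside Cp and Heph, which the copper list also holds, Hfe, a partner of the transferrin receptor, rose 2.24-fold (1.56 to 3.27) from 45 counts, and Lcn2, lipocalin 2, which binds iron siderophores, went from 1 to 14 and 30 counts. Hmox1, heme oxygenase, which frees iron from heme, fell from 52.0 to 17.9 CPM, 2.91-fold (2.52 to 3.38), and stood at 26.3 CPM on day 14. Tmprss6, a protease that lowers hepcidin in liver, fell from 53 to 5 counts. Of the iron regulatory proteins, Aco1 (IRP1) stood at 90.7, 54.0 and 64.2 CPM, a ratio of 0.595 on day 7, and Ireb2 (IRP2) at 169, 165 and 170 CPM. On day 14, 4 genes of the list were higher than on day 0 and 2 lower, Tmprss6 among them, or 24.0% against 16.4%.

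Of 22 compared zinc-dependent enzymes of mineral and matrix, 10 rose and 3 fell by day 7, or 59.1% against 22.2% over all genes, with a median log2 ratio of 0.60. Car9, a carbonic anhydrase of the cell surface, went from 3.51 CPM to 720 and 332, and rose 205-fold by day 7 (155 to 276). The collagenase Mmp13 went from 11.3 to 441 and 435 CPM and the aggrecan-cleaving Adamts1 from 24.1 to 948 and 594. Adamts5 rose 5.09-fold (4.77 to 5.44) by day 7. The genes that fell were the metalloproteinases Mmp16, Mmp9 and Mmp23, of which Mmp16 fell 15.7-fold (9.18 to 29.2). On day 14, 8 were up and 2, Mmp16 and Mmp9, down, or 45.5% against 16.4%. The list was written with the earlier finding that matrix genes rise in these libraries already known, so its direction is not independent of that finding.

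Genes linked to MTF1 or to zinc outside the members gave 3 up and 2 down of 11 on day 7, or 45.5% against 22.2% over all genes. This list too was chosen with earlier results of these data known. Gclc, the rate-limiting enzyme of glutathione synthesis, stood at 55.3, 202 and 250 CPM, up 3.65-fold by day 7 (3.38 to 3.96), and, like the metallothioneins, was highest on day 14. Ndrg1 rose 4.62-fold (4.38 to 4.88) and Tnfaip3 2.88-fold (2.43 to 3.42). Gsta4 fell 2.13-fold (1.65 to 2.76), and Hmox1 is in this list too. On day 14 Gclc, Ndrg1 and Tnfaip3 were up and Gsta4 was down, or 36.4% against 16.4%. Other metal transporters, mainly of magnesium, calcium and manganese, had 1 of 14 changed on day 7, the magnesium transporter gene Slc41a2, which fell 2.61-fold (2.23 to 3.07), and 0 on day 14. These shares, 7.14% and 0%, compare with 22.2% and 16.4% over all genes.

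**Figure D4:**
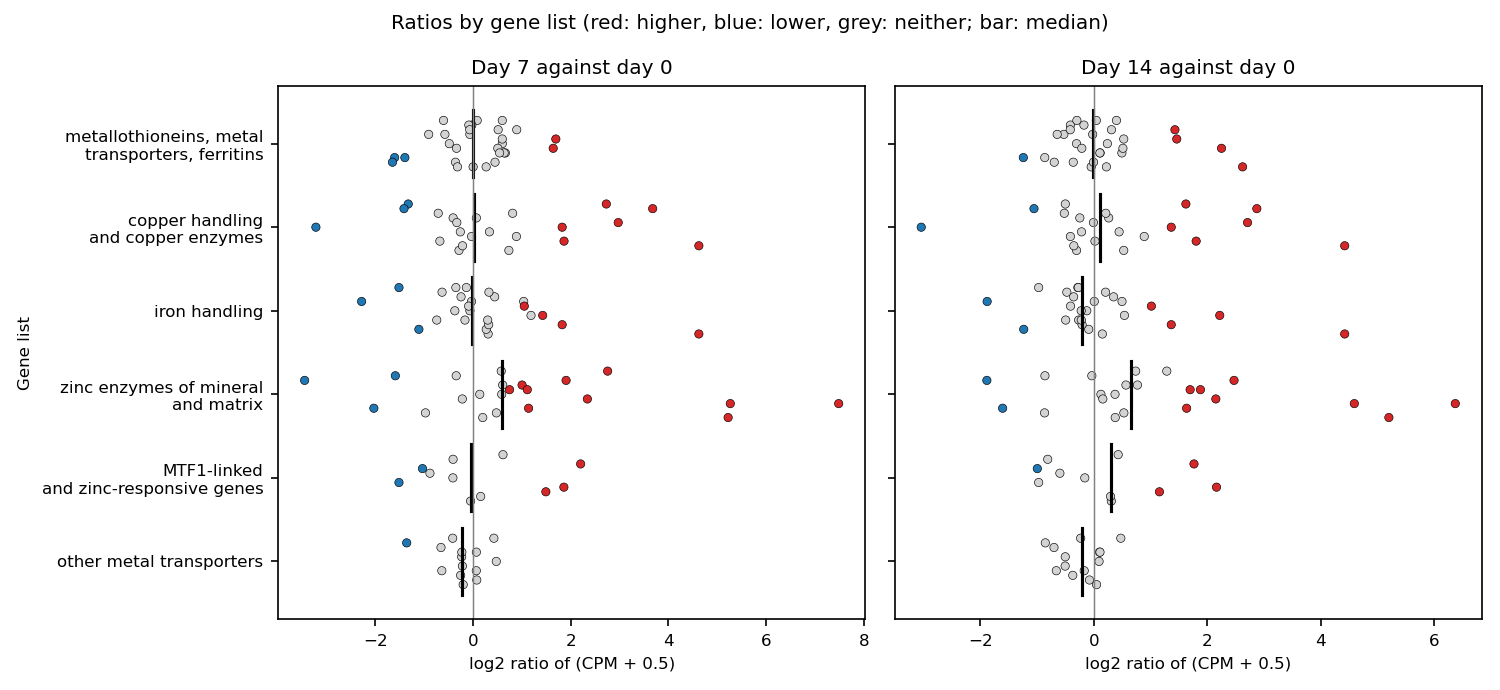
log2 ratio of CPM plus 0.5 to day 0 for each compared gene, by list, on day 7 (left) and day 14 (right), with genes that rose in red, genes that fell in blue and the median as a black bar. The medians of the 29 members are near 0 on both days, and the copper and zinc enzyme lists reach from Steap1 or Mmp16 at the low end to Cp and Car9 at the high end.

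Between day 7 and day 14, Mt1 and Mt2 went further from day 0, while Tfrc, Slc30a1, Slc39a11, Slc39a6 and Slc30a4, lowest on day 7, were nearer to their day 0 level on day 14. The ratio of day 14 to day 7 was 1.95 for Tfrc (1.75 to 2.18), 1.46 for Slc39a11 (1.20 to 1.79), 1.31 for Slc30a1 (0.953 to 1.82), 1.24 for Slc30a4 (1.15 to 1.33) and 1.20 for Slc39a6 (1.05 to 1.37). The interval of Slc30a1 includes no change, and these ratios share the day 7 library with the falls by day 7. Some genes above day 0 on day 7 also moved nearer to it. Their ratio of day 14 to day 7 was 0.869 for Slc31a1 (0.804 to 0.939), 0.871 for Slc39a14 (0.812 to 0.934) and 0.735 for Slc39a3 (0.625 to 0.862). Slc30a9, also above day 0, did not, at 1.005 (0.942 to 1.07). These ratios share the day 7 library too.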

How the data were processed

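The authors deposited raw counts per gene, with 1 column per day named as in the sample titles, and FPKM values. The deposited FPKM equalled the count divided by listed length and library total, within a relative tolerance of 0.001, for 98.8% to 98.9% of detected genes and for all members. HISAT2, TopHat, Cufflinks, HTSeq and DESeq and the mm10 build are named in the submitters' processing notes, without versions or roles. The miRNA values were not used here.

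Counts of all genes were scaled with TMM factors (edgeR 4.0.16, R 4.3.3). Ratios have exact Clopper-Pearson 95% intervals conditional on the summed count, and log2 ratios use CPM plus 0.5, which understates changes of low genes. With 1 library per day no replicated test was possible and no p-value is given. Shares of pairs have exact Clopper-Pearson intervals. The calling rule was run on simulated counts that held counting error alone, so that run does not cover differences between cultures. Genes given with values were, by rule, each member past the calling rule, the metallothioneins, Mtf1, the copper and iron members, the 3 Slc30a and 3 Slc39a genes highest per kilobase, up to 4 called genes of each list by size of ratio, and Lox and Alpl. Other zinc transporters and list genes were named after their values were seen. The members and lists were chosen with earlier results of these data known. Alternatives were DESeq2 1.42.0 size factors, library totals, other minima, folds and pseudocounts, and FPKM. Python 3.11.15 was used with scipy 1.17.1. The values of 1 gene counted in the iron list are not reported here.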

Additional observations from a re-analysis of the deposited data

How the results depend on the processing

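No paired analysis was possible because each day has 1 library and the labels give no replicate numbers, and for the same reason no library could be left out within a day. DESeq2 size factors, no CPM minimum and pseudocounts of 0.1 and 2 CPM left each summary value within 1.5 times (medians within 0.1). Library totals moved the median log2 ratio of all genes to -0.14 on day 7 and -0.15 on day 14, and that of the members to -0.154 and -0.156. They put 2 members and 11 pathway genes below day 0 on day 14, in place of 1 and 7, as did the FPKM values (2 and 11). For all genes, library totals gave 1473 higher and 2085 lower on day 7, against 1794 and 1651, and 1139 and 1505 on day 14, against 1386 and 1160.

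A 1.5-fold threshold gave 7 members higher and 6 lower on day 7, 4 lower on day 14, and 3 higher on day 14 against day 7, with 18 and 15 pathway genes lower on day 7 and day 14 and 5 higher and 6 lower between them. A 4-fold threshold left 0 members higher and 0 lower on day 7, 2 higher and 0 lower on day 14, 12 pathway genes higher and 5 lower on day 7, 4 lower on day 14, and 0 and 0 between day 7 and day 14. With a minimum of 5 CPM, 0 pathway genes were higher on day 14 than on day 7. A summed count of 100 or more, or leaving out Slc39a7 (an alternative chosen after seeing the data), left 0 members higher on day 14 than on day 7. Shares over all genes were not computed under these thresholds and minima. The counts in this paragraph therefore have no background beside them and show only how the calls depend on the setting. No member call reversed under any alternative run. A summed count of 20 was the chosen minimum, so genes below it were not compared.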
